A study of Mus musculus with 384 samples.

Results

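The levels of 10 genes of the Wnt pathway that dampen its signal, or that the pathway switches on to dampen itself, were followed across single mouse mammary cells: Sostdc1, Wif1, Dkk3, Dkk4, Sfrp1, Sfrp2, Apcdd1, Notum, Nkd1 and Axin2. They were chosen by name from the 49585 gene rows of a table of raw read counts, and all 10 had a row. The cells came from 3 sort gates on 1 plate of 384 wells. Most basal wells lay in plate rows 1 to 6, most luminal wells in rows 6 to 11 and most embryonic wells in rows 11 to 16. Embryonic cells were GFP-positive cells from the skin, with the mammary buds, of female mouse embryos at embryonic day 14 that carried the Lgr5-EGFP-IRES-CreER reporter allele, sorted as high for CD49f and Lgr5. Adult cells came from mammary glands as a basal gate (CD24-positive, CD29 high) and a luminal gate (CD24-positive, CD29 low). The source label of the adult wells, Rosa-tdTomato, names another reporter strain, and the labels name neither the age of the adult mice nor any animal or litter. In all gates, cells stained for CD45, CD31 or CD140a, surface proteins of blood, endothelial and mesenchymal cells, were to be excluded. Because Lgr5, a receptor and itself a Wnt-responsive gene, was the sort reporter of the embryos, the embryonic gate was selected in part on Wnt output. Age, genotype, sort strategy and, for most wells, plate row cannot be told apart between embryonic and adult cells. The adult gates shared only 3 plate rows, with 24 basal and 17 luminal kept wells, so gate and row are largely joined there too.

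Wnt proteins bind Frizzled receptors and the co-receptors Lrp5 and Lrp6, which stops the breakdown of beta-catenin and lets it act with Tcf and Lef factors on target genes. Antagonists act at several steps. Wif1 and the Sfrp proteins are secreted and bind Wnt ligands, Sostdc1 and Dkk4 are secreted and bind the co-receptors, Notum is a secreted enzyme that removes the lipid Wnt needs for its activity, Apcdd1 sits in the membrane, and Nkd1 and Axin2 act inside the cell. Axin2, Nkd1, Notum, Apcdd1 and Dkk4 are known as targets of the pathway and so form negative feedback loops. In the embryonic mammary bud, Wnt signalling is needed for the bud to form, and in the adult gland it is known mainly for its action on basal cells.

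Wells with at least 50000 reads on genes were kept, which left 347 of 376 single-cell wells and took out 10 embryonic, 10 basal and 9 luminal wells. Kept embryonic, basal and luminal wells had medians of 697600, 450200 and 525200 reads on genes and of 5515, 2798 and 3643 genes detected. The gate labels were checked in 2 ways. Krt14, a basal keratin, stood at 2193 CPM (reads of the gene per 1000000 reads on genes) in the basal gate, 1009 in the embryonic gate and 36.6 in the luminal gate, and Krt8, a luminal keratin, stood at 912, 357 and 4694 CPM. Each gate also had 1 well of 50 cells, and 99.2% of embryonic, 90.7% of basal (98 wells) and 97.3% of luminal wells correlated best with the 50-cell well of their own gate. The 10 other basal wells held 16170 CPM of pan-luminal markers against 638 CPM in the 98, so the basal levels are given without them where that matters. Among the 98 were 6 wells (5.56% of the gate) with at least 3 of 6 endothelial markers. These 6 held 7884 CPM of those markers and a median of 4.04 CPM of basal markers (0 to 22050 by well). None had a read of Wif1, Dkk3, Sfrp1, Sfrp2, Apcdd1 or Axin2, and 1 had reads of Sostdc1 and Nkd1. They stayed in the basal gate. Without them its level was 306 CPM for Wif1, 209.5 for Dkk3 and 173 for Sfrp1. The 4 empty wells had no read of any of the 10 genes. With no animals named, a gate is 1 sample however many cells it holds, so differences between gates could not be set against replicates and were not tested. Levels are CPM of the summed reads of a gate, and intervals are exact 95% intervals. They cover counting error only, and amplified reads that carry no molecular identifier do not each stand for a molecule.

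The 10 genes fell into 4 patterns. Wif1, Dkk3 and Sfrp1 were highest in basal cells. Apcdd1, Axin2 and Notum were highest in embryonic cells and low or without a read in adult cells. Sostdc1 and Nkd1 were shared by embryonic and basal cells and nearly without reads in luminal cells. Sfrp2 stood between 8.58 and 25.5 CPM in all gates, and Dkk4 was scarcely read at all. A gene was called when its log2 ratio, with 1 CPM added to both levels, was at least 2-fold, among genes at 5 CPM or more in either gate.

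In the comparison of embryonic with basal cells, 9 of the 10 genes could be measured. Sfrp2, Apcdd1, Notum and Axin2 were at least 2-fold higher in embryonic cells, which is 4 of 9, beside 33.8% of the 12808 genes measured. Wif1, Dkk3 and Sfrp1 were at least 2-fold lower, which is 3 of 9, beside 19.4% of all genes, and Sostdc1 and Nkd1 lay within 2-fold. Against luminal cells, 6 of 9 were higher in embryonic cells (Sostdc1, Wif1, Apcdd1, Notum, Nkd1 and Axin2), beside 39.3% of 12679 genes, and 0 of 9 were lower, beside 17.6%. Between the adult gates, 7 of 8 were higher in basal cells, all but Sfrp2, beside 28.3% of 11885 genes, and 0 of 8 were lower, beside 21.3%. For Apcdd1 and Axin2 this did not hold in the plate rows with both adult gates (24 basal and 17 luminal wells). Basal and luminal levels there were 3.08 and 3.41 CPM for Apcdd1, and 3.92 and 4.31 CPM for Axin2. Over all plate rows, the median log2 ratio of the measured members was 0.89, 2.76 and 4.46 in the 3 comparisons, against 0.38, 0.58 and 0.14 over all genes. The first of these medians joins members that go opposite ways and describes neither set.

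**Figure D1:**
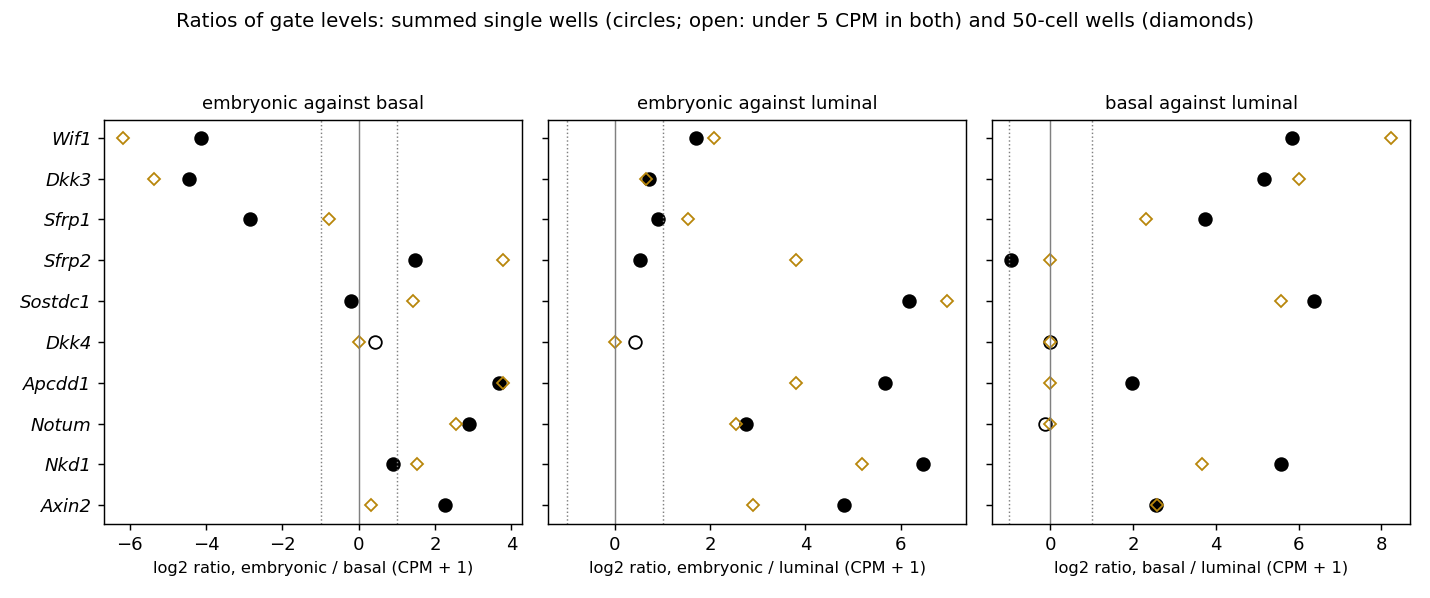
Log2 ratio of CPM (with 1 CPM added) of each gene between gates, from summed single wells (circles, open where both gates are under 5 CPM) and from the 50-cell wells (diamonds); dotted lines mark 2-fold. Wif1, Dkk3 and Sfrp1 lie left of 0 in embryonic against basal, while Apcdd1, Notum and Axin2 lie right of it.

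The upstream sequences of Axin2 and Wif1 are shown because, of the 4 genes with a RefSeq window on GRCm38.p6 at hand (Axin2, Wif1, Nkd1 and Sfrp2), they had the highest and the lowest ratio of embryonic to basal level. Axin2 is a feedback target and Wif1 a secreted antagonist. Each window is the 250 bases before the RefSeq start on the plus strand, at chr11:108920099-108920348 for Axin2 and chr10:121033754-121034003 for Wif1, and capitals mark CTTTG, the core letters of Tcf and Lef sites.
Axin2: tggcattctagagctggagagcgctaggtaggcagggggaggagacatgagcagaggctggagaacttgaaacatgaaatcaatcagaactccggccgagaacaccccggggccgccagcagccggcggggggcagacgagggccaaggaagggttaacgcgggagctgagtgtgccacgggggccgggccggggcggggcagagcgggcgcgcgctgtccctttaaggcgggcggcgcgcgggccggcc
Wif1: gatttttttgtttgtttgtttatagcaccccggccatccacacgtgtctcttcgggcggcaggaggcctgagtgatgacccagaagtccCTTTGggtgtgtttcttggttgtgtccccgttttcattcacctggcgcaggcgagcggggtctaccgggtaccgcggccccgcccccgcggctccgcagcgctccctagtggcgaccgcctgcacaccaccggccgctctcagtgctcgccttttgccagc
On both strands, CTTTG was found once in the Wif1 window, 161 bases before the start, and in none of the Axin2, Nkd1 and Sfrp2 windows. It occurs in 48.6% of 32851 windows of this length. The longer forms CTTTGAA, and those with AT, with TA or with TT in place of the last AA, all of which contain CTTTG, were found in none of the 4 windows and occur in 14.8% of all. The windows are rich in G and C, with 69.2% in Axin2 and 62.8% in Wif1. The RefSeq starts are not always the gene starts given below. The Wif1 window runs past that start, and the Nkd1 window (chr8:88527383-88527632) lies inside the gene. The Nkd1 window therefore does not cover the bases before the gene start given below. No binding was measured, and the letters are a description of these windows only.

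Wif1 (chromosome 10, 121033960 to 121100650, GRCm38, plus strand) encodes Wnt inhibitory factor, a secreted protein that binds Wnt ligands. It was read in 50 basal wells (46.3%), with a lowest non-zero level of 1.35, a median over those wells of 321 and a highest of 3217 CPM. In the embryonic gate 15 wells (11.8%) had a read, from 1.51 to 587 CPM, and in the luminal gate 7 wells (6.25%), from 3.25 to 708 CPM. Of these luminal wells, all but the one at 3.48 CPM lay in plate row 6, which also held basal wells. The gates overlap, since many wells of each had no read, and the highest level outside the basal gate was 708 CPM. Summed, the basal level was 291 CPM, the embryonic level 15.5 and the luminal level 4.11. The basal level was 18.8-fold the embryonic one (17.8 to 19.8) and 70.8-fold the luminal one (62.9 to 79.97). The second ratio depended on the processing. Its log2, with 1 CPM added, was 5.84, and lay between 3.55 and 8.25 over the 9 alternatives listed at the end. A single luminal well held 69.4% of the luminal reads, and without the highest well of each gate the luminal level was 1.26 and the basal level 269 CPM. The embryonic level over the luminal one, 3.77-fold, rested on the few embryonic wells with fibroblast markers that are described further on.

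Dkk3 (chromosome 7, 112116017 to 112159057, minus strand) encodes a secreted protein of the Dickkopf family whose effect on Wnt is less clear than that of its relatives. It had the widest reach of the 10 genes in the basal gate, with a read in 60 wells (55.6%), a median over all wells of 5.36 and a highest well of 2541 CPM. Reads were present in 17 embryonic wells, up to 333 CPM, and in 9 luminal wells, up to 312 CPM. All 9 luminal wells lay in plate row 6, which also held basal wells. The summed levels were 199 CPM in basal, 8.14 in embryonic and 4.55 in luminal cells. Basal cells stood 24.5-fold above embryonic (22.7 to 26.4) and 43.8-fold above luminal cells (39.1 to 49.2). The 50-cell wells gave 306, 6.43 and 3.75 CPM in the same order, although in such wells fewer cells with a gene and less RNA of it per cell cannot be told apart. Basal wells that matched the basal 50-cell well held 232 CPM of Dkk3, and the 10 that matched another held 16 CPM. In plate rows with both adult gates (24 basal and 17 luminal wells) the gap between these gates was smaller. The log2 ratio of basal to luminal level, with 1 CPM added, was 1.93 there, against 5.17 over all rows.

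Sfrp1 (chromosome 8, 23411502 to 23449632, plus strand) encodes a secreted Frizzled-related protein that binds Wnt ligands. In the basal gate 30 wells had a read, with a median of 241 over those wells and a highest of 3738 CPM. In the embryonic gate 20 wells had a read, up to 1157 CPM, and in the luminal gate 8 wells, up to 562 CPM. The summed levels were 165, 21.9 and 11.3 CPM in basal, embryonic and luminal cells, so that basal cells stood 7.53-fold above embryonic ones (7.17 to 7.91). These sums rested on few wells. The highest well held 53.6% of the embryonic, 31.6% of the basal and 78.4% of the luminal reads, and without it in each gate the levels were 10.3, 114.2 and 2.48 CPM. The order of the gates was the same, but in the 50-cell wells basal cells (69.8 CPM) stood less than 2-fold above embryonic cells (40.2 CPM).

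From cell to cell, the levels of Wif1, Dkk3 and Sfrp1 were weakly related. Of the 50 basal wells with Wif1, 38 also had a read of Dkk3, which is 76% beside 55.6% of all basal wells, and the correlation of log2(CPM + 1) over all kept basal wells was 0.25. For Dkk3 and Sfrp1 it was 0.19, and for Wif1 and Sfrp1 0.02. These wells share a plate and differ in depth, and the correlations are descriptions.

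**Figure D2:**
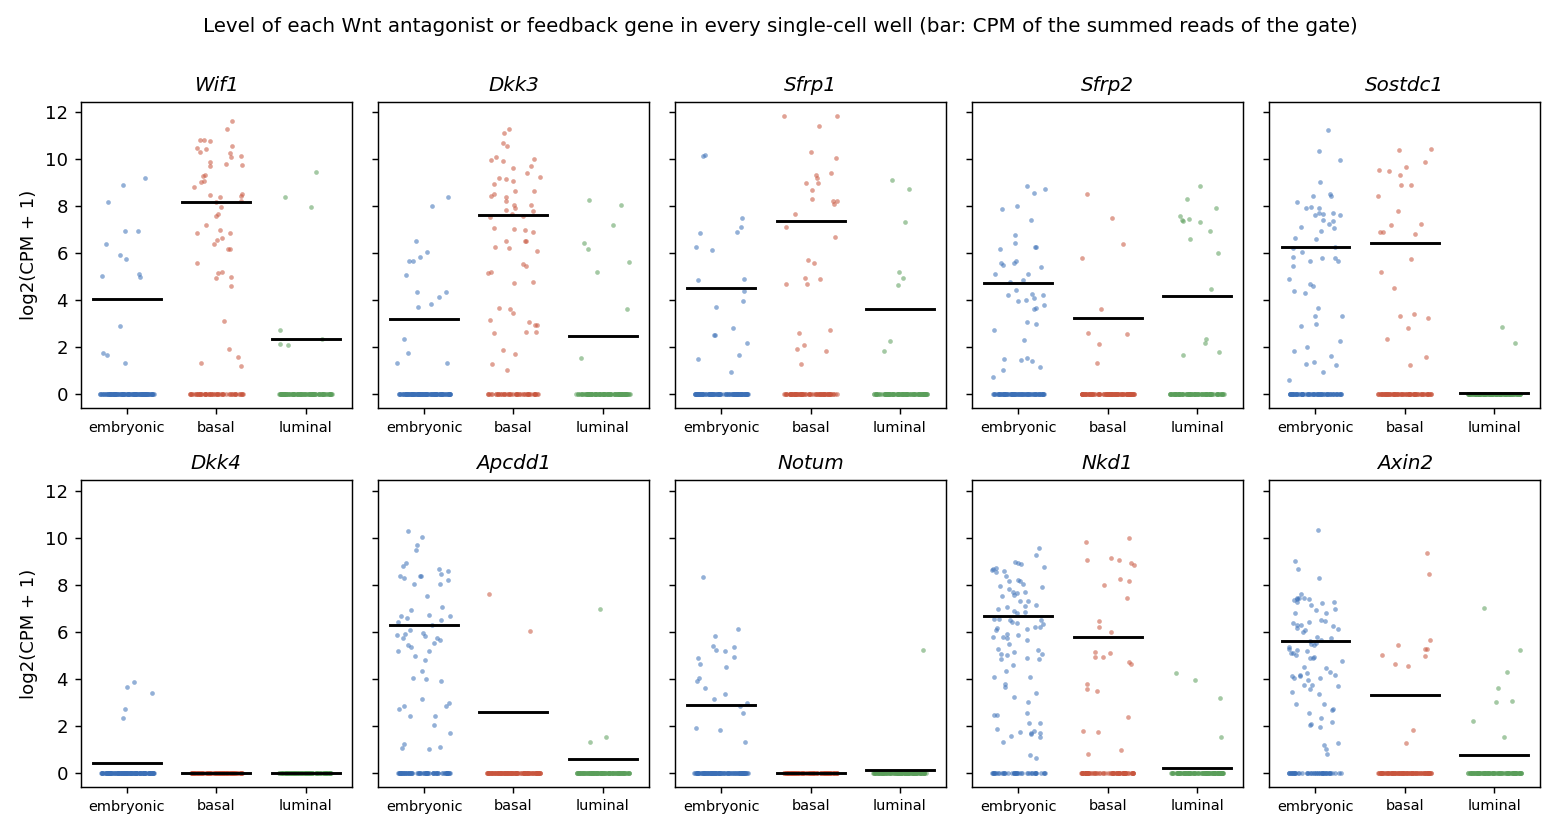
Level of each gene, log2(CPM + 1), in every kept single-cell well of the embryonic, basal and luminal gates; each point is a well and the black bar is the level of the summed reads. Wif1 and Dkk3 reach 3217 and 2541 CPM in the same basal well, which had 93258 reads on genes. Notum and Apcdd1 are read almost only in embryonic wells.

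Axin2 (chromosome 11, 108920349 to 108950783, plus strand) encodes a scaffold of the complex that destroys beta-catenin and is the most used readout of active Wnt signalling. It was read in 79 embryonic wells (62.2%), with a median over all wells of 9.94 and a highest of 1303 CPM. In the basal gate 12 wells (11.1%) had a read, with a highest of 645 CPM that held 53.8% of the reads, and in the luminal gate 8 wells (7.14%), up to 128.6 CPM. The summed embryonic level was 47.3 CPM, the basal 9.06 and the luminal 0.72, which makes the embryonic level 5.22-fold the basal one (4.76 to 5.74) and 65.97-fold the luminal one (49.8 to 89.3). Without the highest well of each gate the basal level was 4.21 and the embryonic level 40.1 CPM. The 50-cell wells did not show this gap between embryonic and basal cells: they held 4 reads of Axin2 in the embryonic well (6.43 CPM, 1.75 to 16.5) and 3 reads in the basal well (4.98 CPM, 1.03 to 14.6). The summed single embryonic cells stood 7.35-fold above their 50-cell well (2.87 to 27).

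Apcdd1 (chromosome 18, 62922231 to 62961179, plus strand) encodes a membrane protein that binds Wnt and its co-receptor. It was read in 58 embryonic wells, from 1.05 to 1258 CPM with a median of 58.98 over those wells. Only 2 basal wells had a read, at 65.5 and 192 CPM, and 3 luminal wells, up to 123.4 CPM. Summed, it stood at 77.2 CPM in the embryonic, 5.06 in the basal and 0.53 in the luminal gate. Embryonic cells stood 15.3-fold above basal cells (13.5 to 17.3) and 147-fold above luminal cells (105.7 to 209). The basal level rested on 1 well with 84.1% of the reads and was 0.82 CPM without it. With that well and the highest luminal well left out, neither adult gate reached 1 CPM, so the difference between the adult gates (9.61-fold) rested on those wells. The embryonic 50-cell well held 12.9 CPM, and the summed single embryonic cells stood 5.998-fold above it (3.04 to 13.9).

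Notum (chromosome 11, 120653788 to 120661175, minus strand) encodes the secreted enzyme described above. It was read in 22 embryonic wells, from 1.46 to 321 CPM, in 0 basal wells, which by the limit of 3 wells allows a share of up to 2.78%, and in 1 luminal well, at 36.5 CPM. The 571 embryonic reads gave 6.35 CPM, 115.5-fold the level that 3 reads, taken as the floor, would give in the basal gate. Against the 6 luminal reads the ratio was 72.3 (33.03 to 198). The level was low, with 1 embryonic well holding 39.1% of the reads, and it was 3.90 CPM without that well. In the 50-cell wells Notum had 3 embryonic reads and none in the adult wells, where 3 reads would be 4.98 CPM in the basal and 5.63 CPM in the luminal well.

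Dkk4 (chromosome 8, 22624043 to 22627547, plus strand), a secreted antagonist that binds the co-receptors, had 31 reads in 5 embryonic wells and no read in any basal, luminal or 50-cell well. Its highest well stood at 13.6 CPM. The embryonic level was 0.34 CPM, 6.27-fold the basal and 7.85-fold the luminal level that 3 reads, taken as the floor, would give. It stayed under the 5 CPM needed for a call in all comparisons.

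Nkd1 (chromosome 8, 88521354 to 88594884, plus strand) encodes a cytoplasmic protein that binds Dishevelled and restrains the pathway. It was the most widely read of the 10 genes in embryonic cells, in 86 wells (67.7%), with a median over all wells of 16.1 and a highest of 749 CPM. In the basal gate 28 wells (25.9%) had a read, and the highest, 1007 CPM, was above every embryonic well. In the luminal gate 4 wells had a read, none above 18.3 CPM. The embryonic sum was 101.1 CPM, the basal 54.2 and the luminal 0.16. The embryonic level was 1.87-fold the basal one (1.79 to 1.95) and 629-fold the luminal one (351 to 1259), and the basal level was 337-fold the luminal one (188 to 675). Without the highest well of each gate the embryonic and basal levels were 94.7 and 44.9 CPM, just past 2-fold. Basal reads of Nkd1 came from wells that matched the basal 50-cell well, at 63.8 CPM, against 1 read in the 10 wells that matched another gate.

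Sostdc1 (chromosome 12, 36314139 to 36318452, plus strand) encodes a secreted inhibitor of both Wnt and bone morphogenetic proteins and is a known gene of the rim of skin appendage buds. It was read in 52 embryonic wells, up to 2457 CPM, and in 26 basal wells, up to 1387 CPM, with medians over those wells of 69.8 and 133.5 CPM. The luminal gate had 4 reads in 2 wells. The summed levels were 75.4 and 87.1 CPM in embryonic and basal cells and 0.06 in luminal cells. The basal level was 1.15-fold the embryonic one (1.11 to 1.20), within 2-fold, while the embryonic level was 1289-fold the luminal one (503 to 4732). Without the highest well of each gate the levels were 60.6 CPM in embryonic and 71.5 CPM in basal cells. Basal wells that matched the basal 50-cell well held 82.1 CPM, and 1 well held 99.7% of the reads in the 10 others. Without the fibroblast-marked wells described further on, the embryonic level was 49.3 CPM. In the 50-cell wells the order was the other way, with 125.4 CPM in embryonic (99.2 to 157) and 46.5 CPM in basal cells (30.9 to 67.2), so that no order between these gates held in both kinds of well.

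Sfrp2 (chromosome 3, 83766321 to 83774316, plus strand), a relative of Sfrp1, was read in 41 embryonic wells up to 467 CPM, in 9 basal wells up to 372 CPM and in 16 luminal wells up to 466 CPM. The summed levels were 25.5, 8.58 and 17.3 CPM. Luminal wells with a read had a median of 143 CPM, above the 20.7 CPM of embryonic and the 11.6 CPM of basal wells with a read, and the luminal wells with a read were fewer than the embryonic and more than the basal ones. The embryonic level was 2.97-fold the basal one (2.69 to 3.28). A single basal well held 65.4% of the basal reads, and without the highest well of each gate the basal level was 3.02 CPM and the luminal level 13.8 CPM. The luminal reads were not seen in the 50-cell well, where Sfrp2 had 0 reads and 3 reads would be 5.63 CPM.

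Overlapping annotated genes could share reads with 4 of the 10 genes: Sfrp2 with antisense Gm26771, Notum with antisense Myadml2os and Notumos, Axin2 with antisense Gm11670, and Nkd1 with Gm45496 on its own strand. Whether the counting used strand is not given in the sources used here.

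Levels between genes were compared per kilobase of exon, over the joined exons of all annotated transcripts of a gene. The order therefore depends on the annotation. For Apcdd1 these exons came to 12884 bases. On that scale, in CPM per kilobase, the order in the basal gate was Wif1 at 120, Dkk3 at 59.3, Sostdc1 at 48.9, Sfrp1 at 37.7 and Nkd1 at 11.9. In the embryonic gate it was Sostdc1 at 42.4, Nkd1 at 22.2, Sfrp2 at 11.8, Axin2 at 8.59 and Wif1 at 6.39, with Apcdd1, whose exons are the longest of the 10, at 5.99. Without the highest well of each gene Apcdd1 (5.47) stood above Wif1 (4.53). In the luminal gate Sfrp2 at 8.05, Sfrp1 at 2.59, Wif1 at 1.69 and Dkk3 at 1.36 led, and Axin2 at 0.13 was the highest of the other 6 genes. Without the highest wells Sfrp2 still led at 6.43, but Dkk3 at 0.95 passed Sfrp1 at 0.57 and Wif1 at 0.52. All luminal wells with Dkk3, Nkd1, Sostdc1 or Notum, and most with Wif1 or Axin2, lay in plate row 6, which also held basal wells. Luminal reads of Sfrp2 came mostly from other rows. The part of plate row in the luminal levels was not tested.

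Depth bears on the counts of wells, so every kept well was thinned at random to 50000 reads and a gene was counted where it had at least 5 reads, which is 100 CPM. Nkd1 was then found in 29.9% of embryonic (22.1 to 38.7), 10.2% of basal (5.19 to 17.5) and 0% of luminal wells, where 0 allows up to 2.68% by the limit of 3 wells. Axin2 was found in 18.1% (11.8 to 25.9) of embryonic and 1.85% (0.23 to 6.53) of basal wells, and Apcdd1 in 17.3% (11.2 to 25.0) and 0.93% (0.02 to 5.05). Wif1 and Dkk3 were found in 33.3% (24.6 to 43.1) and 32.4% (23.7 to 42.1) of basal wells, against 3.94% (1.29 to 8.95) and 2.36% (0.49 to 6.75) of embryonic wells. Sostdc1 was found in 16.5% (10.5 to 24.2) of embryonic and 14.8% (8.71 to 22.9) of basal wells. Counted without thinning and from 1 read on, a typical embryonic well had a read of 3 of the 10 genes, a basal well of 2 and a luminal well of none, and 6 embryonic, 19 basal and 79 luminal wells had none. With 1 read still enough but all wells thinned, embryonic wells held on average 2.22 of the 10 genes, basal wells 1.65 and luminal wells 0.34, and 9.45%, 21.3% and 79.5% of wells had none. With 5 thinned reads required, the means were 1.02, 1.12 and 0.20, so the higher embryonic count was seen at equal depth from 1 read on but not at this higher level.

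Within the embryonic gate, 24 wells (18.9%) had at least 3 of 11 fibroblast or mesenchyme markers at 5 or more thinned reads. The list summed to 19170 CPM in these wells (389 to 94170 from well to well), against 282 CPM (0 to 1440) in the others, and all 11 markers had a read in both sets. Pdgfra, which encodes the CD140a protein used for exclusion, was read in 15 of the 24 wells and in 8.74% of the others. Epithelial genes were present as well, with Epcam in 15 and Krt14 in 16 of the 24 wells, and in 98.1% and 97.1% of the others. Lgr5 was at 531 and 555 CPM. The set is a range and not a type: 20 wells had 2 markers and 7 wells had 3. Median reads on genes were close, at 668200 and 711700.

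Wif1, Sfrp2, Sfrp1, Apcdd1, Axin2, Nkd1 and Sostdc1 were higher in the wells with fibroblast markers. The share of all genes that were higher there was not measured. The values therefore describe single genes and no trait of the 10 genes as a set. Wif1 stood at 69.9 against 2.05 CPM (34.1-fold, 28.7 to 40.7), Sfrp2 at 100.4 against 6.94 CPM (14.5-fold, 13.1 to 16.02) and Sfrp1 at 81.1 against 7.23 CPM (11.2-fold, 10.2 to 12.4). Feedback genes that the pathway switches on were also higher, with Apcdd1 at 203 against 46.04 CPM (4.41-fold, 4.21 to 4.63), Axin2 at 113.5 against 30.9 CPM (3.67-fold, 3.46 to 3.90) and Nkd1 at 194 against 78.1 CPM (2.49-fold, 2.38 to 2.59). Sostdc1 stood at 181 against 49.3 CPM. Dkk3 and Notum went the other way, with Dkk3 at 3 reads in the 24 wells against 10.1 CPM in the others, and Notum at 1.01 against 7.67 CPM. Single wells carried part of this. Without the highest well of each set Sfrp1 was 4.75-fold higher and Wif1 50.9-fold higher, and Sfrp2, Apcdd1, Nkd1 and Axin2 remained between 2.34-fold and 12.9-fold higher.

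Leaving these 24 wells out changed 4 calls between gates, those of Sfrp2 in both embryonic comparisons and of Wif1 and Dkk3 against luminal cells. Sfrp2 was then 6.94 CPM in embryonic and 8.58 CPM in basal cells, so its call as higher in embryonic cells was lost, and Wif1 was 2.05 CPM in embryonic and 4.11 CPM in luminal cells. Sfrp2 was also then more than 2-fold lower in embryonic than in luminal cells, and Dkk3 just past 2-fold higher, on the log2 scale with 1 CPM added. Sfrp1, within 2-fold of luminal cells either way, went from 21.9 to 7.23 CPM in embryonic cells against 11.3 CPM in luminal cells. Apcdd1, Axin2, Notum and Nkd1 stayed at least 2-fold higher than in luminal cells, and Apcdd1, Axin2 and Notum also than in basal cells. The embryonic 50-cell well also held fibroblast markers, with Col1a1 at 1176 and Col3a1 at 3598 CPM, while its Apcdd1 and Axin2 were low, as given above.

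Wif1, Sfrp1 and Sfrp2 were lower in embryonic wells with markers of dividing cells. In the 40 wells with at least 3 of 15 G2 and M phase markers, Wif1 stood at 2.84 against 23.7 CPM in the other 87, Sfrp1 at 3.95 against 33.4 CPM and Sfrp2 at 13.9 against 32.9 CPM. The fibroblast list was also lower there, at 1147 against 5880 CPM (all 11 markers read in both sets, 12 to 19190 and 0 to 94170 CPM by well), and its part in these differences was not tested. Notum was higher in the G2 and M wells, at 10.9 against 3.43 CPM (3.17-fold, 2.66 to 3.79), and was 2.72-fold higher without the highest well of each set. Dkk3 was at 12.02 against 5.65 CPM. Axin2 (45.1 and 48.7 CPM), Nkd1 (114.4 and 92.6 CPM) and Sostdc1 (63.1 and 83.4 CPM) differed by less than 2-fold. A further split, chosen after the data were seen, was by Lgr5, of which 9 embryonic wells had no read. Apcdd1 was higher in these 9, at 234 against 66.96 CPM (2.19-fold without the highest well of each set), and Sfrp1 lower, at 2.01 against 23.2 CPM. Axin2 (42.1 against 47.6 CPM) and Nkd1 (106.3 against 100.8 CPM) differed by less than 2-fold, but without the highest wells Nkd1 was 39.3 against 93.98 CPM. The 9 wells held more of the fibroblast list, 10940 against 3579 CPM (37.3 to 25860 and 0 to 94170 by well, with all 11 markers read in both), and less of the pan-luminal list, 247 against 1636 CPM, whose part in these differences was not tested.

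Within the luminal gate, 46 wells held more hormone-sensing than secretory markers and 66 the reverse. Only 1 well was as close as 1 marker to an even count. Sfrp2 was read in 16 of the 66 secretory-marked wells (24.2%), at 32.4 CPM, and in 0 of the 46 hormone-sensing ones, although the latter were the deeper (medians of 769600 and 483200 reads). This is 344-fold the level that 3 reads, taken as the floor, would give in the hormone-sensing wells. The exact interval of the ratio begins at 279-fold. At equal depth 9 of 66 secretory-marked wells had Sfrp2 (13.6%). Sfrp1 stood at 19.9 against 1.45 CPM (13.8-fold, 10.2 to 18.98), but without the highest well of each set at 3.41 against 0.06 CPM. Dkk3 was at 3.92 and 5.28 CPM, all of it from wells in plate row 6. For Wif1 the secretory-marked wells were higher, at 5.59 against 2.42 CPM, and the order turned without the highest wells, at 0.25 against 1.14 CPM. The other 6 genes were under 1 CPM in both sets.

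**Figure D3:**
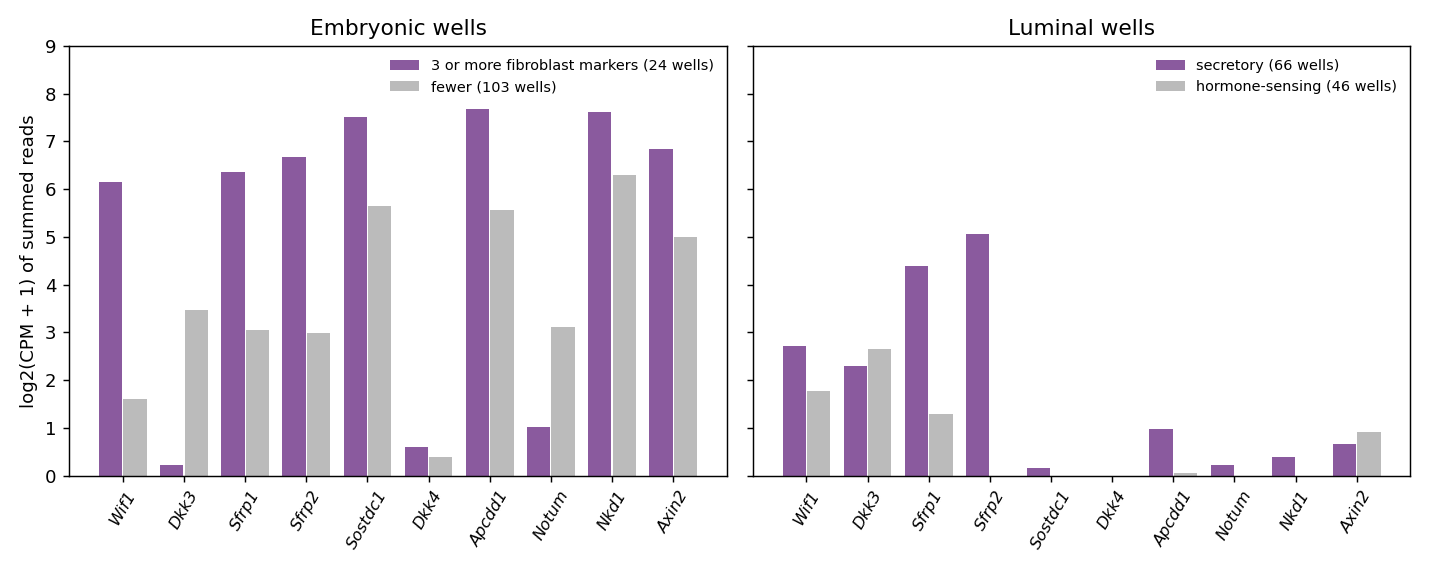
Level of each gene, log2(CPM + 1) of summed reads, in embryonic wells with at least 3 fibroblast markers (24) or fewer and in luminal wells with mostly secretory (66) or hormone-sensing (46) markers; bars are single sums without an error. Sfrp2 is at 32.4 CPM in secretory-marked and at 0 in hormone-sensing luminal wells, and Dkk3 and Notum are the members clearly lower in fibroblast-marked embryonic wells.

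Pairs of genes were compared where both were read in at least 20% of the wells of a gate. Of the 10 such pairs in embryonic wells, among Sostdc1, Sfrp2, Apcdd1, Nkd1 and Axin2, the correlation was highest for Nkd1 and Axin2: 61 of the 79 wells with Axin2 also had Nkd1 (77.2%, beside 67.7% of all wells), with a Pearson correlation of 0.35 over all kept embryonic wells. Sfrp2 and Apcdd1 followed at 0.29 and Apcdd1 and Nkd1 at 0.23. Sostdc1 had almost no relation to the feedback genes, at 0.02 with Axin2 and -0.03 with Nkd1. The number of the 10 genes with a read was related to depth (Spearman 0.34 over embryonic wells), which these pairs share.

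For the 8 genes read in at least 20% of the wells of the gate where they were highest, the 3 genes most like them were found by the Pearson correlation of log2(CPM + 1) over that gate. In the basal wells the closest to Wif1 was Dcn, a small matrix proteoglycan, at 0.52, followed by Pcsk5 and Csdc2. Dkk3 was closest to Lama3, a chain of laminin-332, at 0.42, then Postn and Serpinb6b. Sfrp1 was closest to Mme at 0.49, then Lgals1 and Lgr5, the last at 0.46, and the same 3 genes led by Spearman correlation. Sostdc1 was closest to Ntf5 at 0.44, then Htra1 and Rab24. Dcn and Postn are on the fibroblast list as well, and were read in 56.5% and 74.1% of basal wells. In the embryonic wells Sfrp2 was closest to Sorcs2 at 0.50, then Dact3, itself a Wnt pathway inhibitor, and Sulf2. Apcdd1 was closest to Ddr2 (0.46), Cavin3 and Cacna1g, none of which led by Spearman correlation. Nkd1 was closest to Tmem132c (0.42), Sept8 and Sfrp5, and Axin2 to Tmem65 (0.37), Twist1, a fibroblast marker here, and Cdh11. These are the highest of 4923 basal or 8306 embryonic genes, and all are modest.

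The rest of the pathway was described from lists written with earlier results of these data known. Its counts stand beside the shares of all genes given above, 33.8% higher and 19.4% lower in embryonic than in basal cells, 39.3% and 17.6% against luminal cells, and 28.3% and 21.3% in basal against luminal cells. Of 5 measured secreted antagonists outside the 10 genes, 3 were higher and 1 lower in embryonic than in basal cells. Dkk2, a co-receptor antagonist, was at 41.5 CPM in embryonic cells and had no read in either adult gate, and Igfbp4 was at 538, 45.1 and 4.07 CPM in embryonic, basal and luminal cells. Sfrp5 stood at 26.6, 7.08 and 0 CPM. Dkkl1 went the opposite way, at 1.31, 14.8 and 159 CPM, and was the secreted relative with the highest level in luminal cells, 10.7-fold above basal cells (9.98 to 11.53). Its basal reads all came from the 10 wells that matched another gate: without mismatched wells in either gate Dkkl1 stood at 0 CPM in basal and 0.56 CPM in embryonic cells, and its direction between these gates turned.

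Of 23 measured membrane and intracellular negative regulators, 12 were higher and 3 lower in embryonic than in basal cells, and 12 were higher and 2 lower than in luminal cells. Kremen2, a receptor for Dickkopf proteins, stood at 377 CPM in embryonic cells against 3.39 in basal and 1.29 in luminal cells. Znrf3, a Wnt-induced ubiquitin ligase that removes Frizzled from the surface, stood at 363, 49.2 and 15.6 CPM. Gsk3b, the kinase of the destruction complex, was at 535, 341 and 200 CPM, and Tcf7l2, a Tcf factor that can repress or activate, at 186, 252 and 170 CPM. Between the adult gates 5 of 20 were higher in basal cells and 2 lower.

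Of 12 measured Wnt-responsive genes, 9 were higher in embryonic than in basal cells and 1, Myc, was lower, and 9 were higher and 2 lower than in luminal cells. Both counts of 9 include Lgr5, the sort gene of the embryos, on which that gate was selected. Lgr5 stood at 550, 207 and 38.3 CPM, but at 298 CPM in the embryonic and 362 CPM in the basal 50-cell well. Ccnd1 stood at 314, 24.4 and 53.5 CPM. Myc was at 16.1 CPM in embryonic cells against 250 in basal and 93.1 in luminal cells, and Cd44 at 96.7, 153 and 348 CPM, so genes often listed as Wnt targets did not share 1 order of gates. Between the adult gates 3 of 6 were higher in basal cells and 3 lower.

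Of 12 measured Wnt ligands, 9 were higher and 3 lower in embryonic cells, with Wnt6 at 240 against 6.88 CPM, Wnt7a at 99.2 against 0.11 CPM, Wnt4 at 155 against 15.4 CPM and Wnt5a at 212 against 84.7 CPM. In luminal cells these stood at 1.77, 0.53, 121.2 and 42.5 CPM. Of 17 measured receptors, 5 were higher and 3 lower than in basal cells, and 11 higher and 1 lower than in luminal cells. Fzd7, a Frizzled of basal cells, followed the order of Wif1 and Dkk3, at 370 CPM in basal, 45.95 in embryonic and 12.4 in luminal cells. The co-receptor Lrp6 was within 2-fold in all gates (287, 224 and 189 CPM), and Lgr4 and Lgr6 were within 2-fold between embryonic and basal cells. Between the adult gates 10 of 17 receptors were higher in basal cells and 3 lower, and 4 of 8 ligands were higher and 3 lower.

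**Figure D4:**
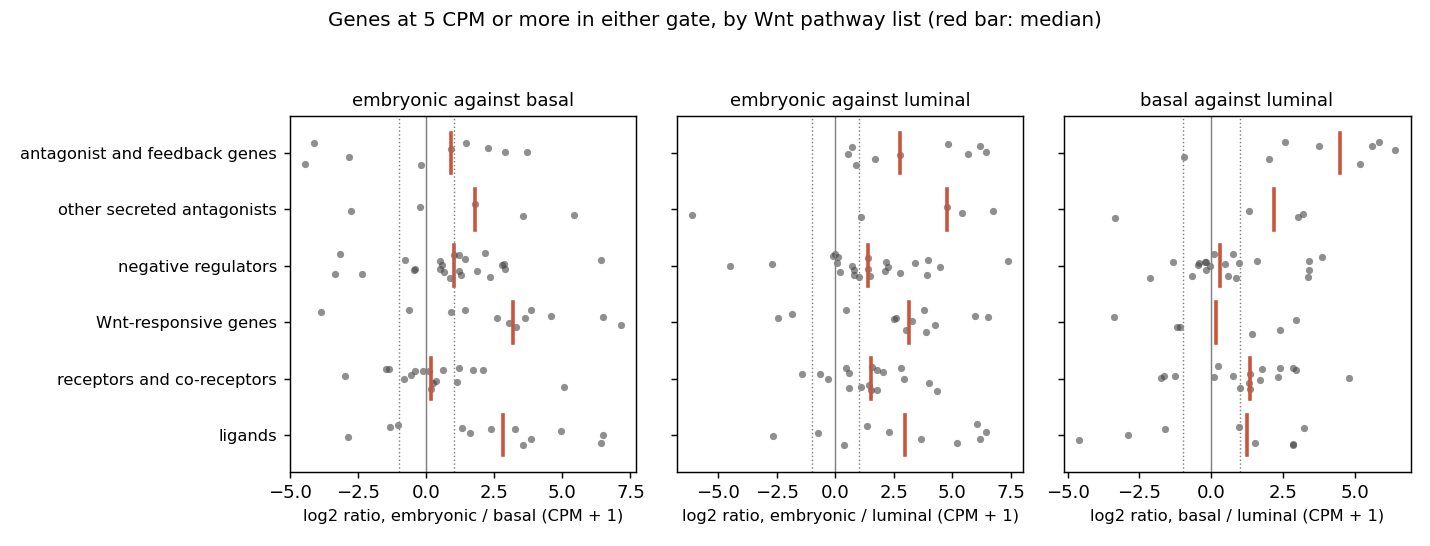
Log2 ratio of CPM (with 1 CPM added) between gates for each measured gene of the 10 antagonist and feedback genes and of 5 other Wnt pathway lists; each point is a gene, the red bar is the list median, and dotted lines mark 2-fold. The medians of the Wnt-responsive list are 3.17 in both embryonic comparisons and 0.16 between the adult gates. The equal values depend on the added 1 CPM: with levels of 0 set at a bound instead, the medians are 5.54 against basal and 4.06 against luminal cells.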

How the data were processed

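Single cells were sorted into 384 wells and sequenced with a modified Smart-seq2 protocol with 24 amplification cycles, per the labels' protocols. The tools listed are STAR 2.5.2b, HTSeq 0.6.0 and cutadapt 1.13, with the build GRCm38, per the submitters' processing notes. The deposited values are raw read counts per gene and well. Which annotation and strand mode the authors counted with is not stated in those notes.

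Gene names, coordinates and exon lengths came from GENCODE M21 (49326 of 49585 identifiers matched, 5577 of them without their version number). Wells with at least 50000 gene reads were kept (spike-ins excluded); kept wells held 52687 to 1836609 embryonic, 52500 to 1466484 basal and 63571 to 1595858 luminal gene reads, and the 50-cell wells 621792, 601969 and 532820. A well with conflicting gate labels, which had no read of the 10 genes, entered no comparison. Reads were summed per gate and scaled to CPM. Ratios have exact conditional Poisson intervals and shares exact Clopper-Pearson intervals, computed with scipy 1.17.1. The ratio code was tested on simulated data. TMM factors came from edgeR 4.0.16, used for scaling only.

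All 10 genes were named, with up to 4 of the highest genes of each other list and the 3 genes most like each member. A marker class needed 3 markers with 5 thinned reads each. The fibroblast list was Col1a1, Col1a2, Col3a1, Pdgfra, Dpt, Lum, Dcn, Postn, Twist1, Twist2 and Prrx1. The members and all lists were chosen with earlier results of these data known.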

Additional observations from a re-analysis of the deposited data

How the results depend on the processing

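No paired analysis was possible because the labels give no replicate numbers that gates share and each gate is 1 sample. The number of the 10 genes at least 2-fold apart stayed between 6 and 7 for embryonic against basal (7 as reported), between 6 and 8 for embryonic against luminal (6) and between 5 and 8 for basal against luminal (7), over 10, 10 and 9 alternatives: stricter wells, the mean of per-well CPM, TMM scaling, no minimum level, a prior of 5 CPM, the 50-cell wells, and without the highest wells, mismatched wells, fibroblast-marked wells or plate rows with 1 of the gates only. Without fibroblast-marked wells the log2 ratio turned to -0.27 for Sfrp2 (embryonic against basal) and -0.74 for Wif1 (embryonic against luminal). In plate rows with both adult gates (24 basal and 17 luminal wells) the basal against luminal ratio turned to -0.11 for Apcdd1, -0.11 for Axin2 and -0.82 for Znrf3. In those rows it kept its direction for Dkk3 but fell from 5.17 to 1.93. In the 50-cell wells the basal against luminal ratio turned to -0.14 for Znrf3 and 1.46 for Cd44, and embryonic against basal to -1.08 for Sfrp5 and -0.28 for Lgr5. The genes behind a steady count could change. In the 50-cell wells, for embryonic against basal, Axin2 (0.31) and Sfrp1 (-0.78) were within 2-fold and Sostdc1 (1.41) was past it. Without mismatched wells Dkkl1 turned to 0.64 (embryonic against basal), and without the highest luminal wells Wif1 to -2.20 (secretory against hormone-sensing). The causes were not tested. TMM scaling shifted log2 ratios by -0.32, -0.47 and -0.15 in the 3 comparisons and the share of higher among all calls from 63.5% to 52.1%, 69.1% to 54.4% and 57.03% to 51.5%. Under it the 10 genes gave 4 higher and 3 lower, 6 and 0, and 7 and 1, the last with 1 more lower call (Sfrp2) than as reported. Depth limits Notum, Dkk4 and the luminal levels, where a few reads set each value.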
